A study of Rattus norvegicus with 12 samples.

Results

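The EGF receptor family described here comprises 10 genes of the rat, chosen by their roles in this pathway with earlier results for Tgfa and others already known. They are the ligand genes Tgfa, Egf, Hbegf, Areg and Ereg, the receptor genes Egfr, Erbb2 and Erbb3, the ligand sheddase gene Adam17 and the feedback inhibitor gene Errfi1. Every probe set whose only gene symbol was one of these was taken, which gave 13 of the 31099 probe sets of the array, with 3 for Egfr, 2 for Tgfa and 1 for each other gene. A probe set is a group of short probes against one transcript region.

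Gene expression was read on 1-colour Affymetrix arrays from total RNA of cartilage of the rat knee. The groups were surgery that induces osteoarthritis (OA) and sham surgery at 2 weeks, and OA and sham surgery at 8 weeks, with 3 arrays in each of the 4 groups. The labels refer to an earlier description of the surgery and give no strain, sex or age, and no genotype or drug treatment sets the groups apart. They number the arrays of a group without saying whether each was a separate animal, so a p-value here reflects only sample-to-sample spread, which may be technical.

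Ligands of the EGF receptor are made as membrane-bound precursors, and metalloproteases such as ADAM17 cut them free. A bound ligand makes the receptors pair and phosphorylate each other, which starts the ERK and AKT cascades, and ERRFI1 (also called MIG6) binds the active receptor and blocks its kinase. In cartilage, transforming growth factor alpha (TGF-alpha) is known to lower matrix gene expression in cultured chondrocytes, and loss of Errfi1 in mice leads to joint disease.

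All values below are deposited log2 levels, and differences are log2 differences with the standard error (SE) of a limma fit over all 12 arrays. The term called means an adjusted p under 0.05, with Benjamini-Hochberg adjustment across the 15934 probe sets whose log2 value exceeded 4 in at least 3 arrays. Of the 13 family probe sets, 8 passed that filter, standing for 6 genes, and 7 of these 8 exceeded log2 4 in all 12 arrays. Levels of different probe sets depend on their probes and were not compared with each other.

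Each array had 48.2% to 49.8% of its probe sets over log2 4, and precision is limited by having 3 arrays per group. Chondrocyte markers averaged 15.15 to 15.49 in all arrays (7 of 10 listed genes measured), close to the top of the scale. A gene counts as measured if a probe set with its symbol alone passed the filter. The lowest average was that of OA 8 weeks replicate 1. At 8 weeks 3 of the 7 differences were above 0 and 4 below. Of the 7, 1 was called, lower in OA, against 2.45% of all 9247 measured genes called lower. OA 8 weeks replicate 1 stood apart. Its 3-prime minus 5-prime difference was 0.885 for Gapdh, against 1.24 to 1.47 elsewhere, and that of actin was 5.38, against 7.72 to 8.66 elsewhere. Its mean correlation with its own group was 0.987, against 0.991 to 0.996. Sham 8 weeks replicate 1 also lay away from its group, with a macrophage marker level of 7.46, against 9.71 and 10.07 in sham 8 weeks replicates 2 and 3, and a score on the first principal component of 48.2, against 8.51 and 11.2. The 8-week differences of Tgfa, Adam17, Egf and Hbegf are given with and without each of these arrays. For some other genes the range with single arrays left out is given.

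Tgfa, the gene of TGF-alpha, carried the clearest difference of the family. Its brighter probe set, 1381449_s_at, read 12.21, 12.45 and 12.75 in OA at 8 weeks, against 9.43, 9.47 and 9.45 in sham at 8 weeks. At 2 weeks it read 10.73, 10.93 and 11.19 in OA, against 10.82, 10.82 and 10.91 in sham. The 3 OA arrays at 8 weeks lay above, and the 3 sham arrays at 8 weeks below, every 2-week array, while OA and sham overlapped at 2 weeks.

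The OA minus sham difference at 8 weeks was 3.02 ± 0.15 (95% confidence interval 2.70 to 3.35, adjusted p = 2.58e-05 by limma) for Tgfa. At 2 weeks the difference of Tgfa was 0.10 ± 0.15 (95% confidence interval -0.22 to 0.43, adjusted p = 1). In this bulk tissue, more cells of a type and more RNA per cell cannot be told apart. Averaged over both times, Tgfa was higher in OA by 1.56 ± 0.10 (adjusted p = 0.000532), and its 8-week effect exceeded its 2-week effect by 2.92 ± 0.21 (adjusted p = 0.00102). The average called 1 of the 8 family probe sets, against 0.364% of all, and the difference of effects called 1 of the 8, against 0.138% of all. In that last contrast the Tgfa probe set had the smallest p of all 15934.

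Both 8-week groups differed in Tgfa from the 2-week groups of the same surgery. The 8 minus 2 weeks difference of Tgfa was 1.52 ± 0.15 in OA (adjusted p = 2.12e-05) and -1.40 ± 0.15 in sham (adjusted p = 4.5e-05). On probe set 1381449_s_at, Tgfa thus rose with time after OA surgery and fell with time after sham surgery. These comparisons share the groups of the 8-week comparison, and age and time after surgery cannot be told apart in them. Any difference in sample or array handling between the times cannot be told apart from time either. The hybridization control probe sets averaged 9.76 to 9.84 in the 2-week arrays, against 9.09 to 10.33 in the 8-week arrays. Without OA 8 weeks replicate 1, the 8-week difference of Tgfa was 3.15 (adjusted p = 5.4e-05), and without sham 8 weeks replicate 1 it was 3.01 (adjusted p = 0.00011).

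**Figure D1:**
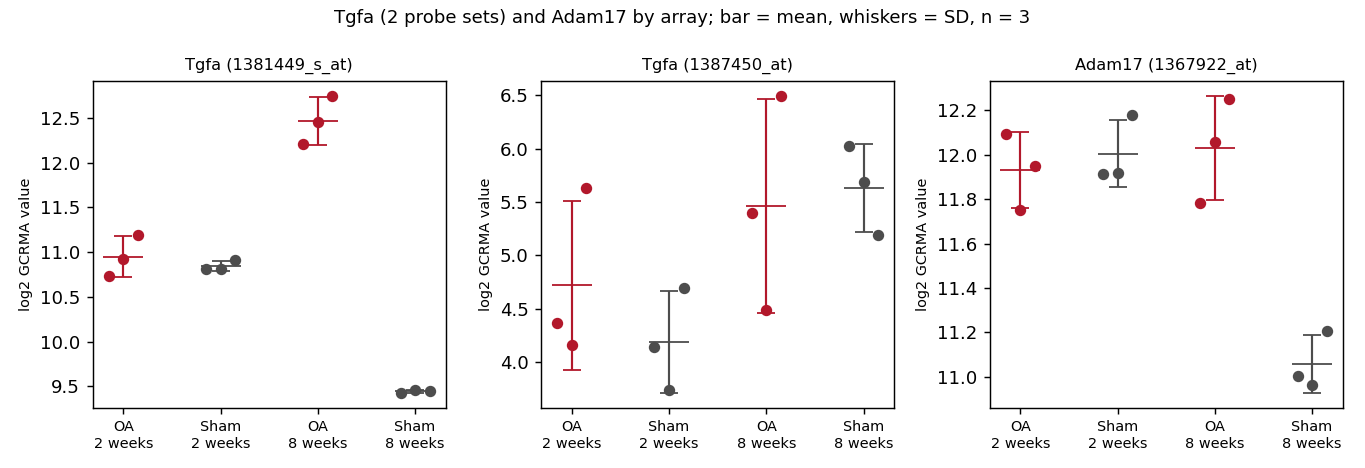
Deposited log2 level (vertical axis) of Tgfa (both probe sets that passed the filter) and Adam17 in each array, by group (OA left of sham at 2 and at 8 weeks), with a point per array, a horizontal bar for the mean and whiskers for the SD. For Tgfa 1381449_s_at the 8-week groups lie on either side of both 2-week groups, and for Adam17 the 3 sham arrays at 8 weeks lie below all the others.

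The second Tgfa probe set, 1387450_at, was dim and gave another picture. It read 5.40, 4.49 and 6.50 in OA at 8 weeks, against 6.02, 5.68 and 5.20 in sham at 8 weeks. At 2 weeks it read 4.37, 4.16 and 5.63 in OA, against 4.14, 3.74 and 4.69 in sham. The groups overlapped at both times, with differences of -0.17 ± 0.53 at 8 weeks (95% confidence interval -1.35 to 1.0, adjusted p = 0.897) and 0.53 ± 0.53 at 2 weeks (adjusted p = 1). The interval at 8 weeks lies below the 3.02 of the brighter Tgfa probe set, so the probe sets disagreed, and the Tgfa result rests on 1381449_s_at alone. The ending of that name marks probes that can match more than one transcript, and the probe sequences were not used here.

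Adam17, the metalloprotease gene whose product sheds TGF-alpha, heparin-binding EGF and amphiregulin, was the other member called at 8 weeks. It read 11.78, 12.06 and 12.25 in OA at 8 weeks, against 11.00, 10.96 and 11.21 in sham at 8 weeks. The 2-week values were 12.09, 11.75 and 11.95 in OA, against 11.92, 11.92 and 12.18 in sham. The 3 sham arrays at 8 weeks lay below the other 9 arrays, and the other 3 groups overlapped.

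Adam17 was higher in OA at 8 weeks by 0.97 ± 0.14 (95% confidence interval 0.65 to 1.29, 1.96-fold, adjusted p = 0.0094). At 2 weeks its difference was -0.07 ± 0.14 (adjusted p = 1). With time, Adam17 fell in sham, by 0.95 ± 0.14 (adjusted p = 0.000727), and differed by 0.10 ± 0.14 in OA (adjusted p = 0.637). The difference of its OA effect between the times was 1.05 ± 0.20 and was not called (adjusted p = 0.0998). Without OA 8 weeks replicate 1 that difference was 1.17 and was called (adjusted p = 0.0494), and the 8-week difference of Adam17 was 1.10 (adjusted p = 0.00722). Without sham 8 weeks replicate 1 the 8-week difference of Adam17 was 0.94 (adjusted p = 0.0179). The 8-week call of Adam17 ended with the level of skeletal muscle markers as a covariate (1.08, adjusted p = 0.0771) and with only the 6 arrays compared (adjusted p = 0.0882).

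Across the family, 2 of the 8 probe sets were called in OA minus sham at 8 weeks, both higher, against 3.46% of all 15934 probe sets, of which 1.51% were higher. With the replicate number as a block within each time, 4 of the 8 EGF family probe sets were called at 8 weeks, 3 higher and 1 lower, and 1037 of all probe sets. Without sham 8 weeks replicate 1, 3 of the 8 EGF family probe sets and 979 of all were called at 8 weeks. The 8-week median over the 8 probe sets was 0.05, against 0.01 over all probe sets. At 2 weeks limma called 0 of the 8 and 0 of all probe sets. At an unadjusted p under 0.05 the 2-week comparison had 0 of the 8 and 269 of all.

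The promoters of the 2 genes called at 8 weeks are shown because these are the members that differed, and each is 250 bases before to 50 bases after the annotated start in RefSeq's GRCr8 build. The matched table held 8 of the 10 members. Capitals mark the GC box, the motif GGGCGG bound by SP1 family factors, or its reverse complement where it lies on the other strand.
Tgfa promoter, chr4:120175469-120175768, plus strand: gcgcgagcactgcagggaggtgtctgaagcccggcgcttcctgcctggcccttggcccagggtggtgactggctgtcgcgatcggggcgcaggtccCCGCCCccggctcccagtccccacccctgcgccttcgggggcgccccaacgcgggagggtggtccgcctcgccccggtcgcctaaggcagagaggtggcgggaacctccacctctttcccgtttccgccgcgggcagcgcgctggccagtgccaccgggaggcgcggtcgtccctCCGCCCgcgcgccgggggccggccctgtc
Adam17 promoter, chr6:46649295-46649594, minus strand: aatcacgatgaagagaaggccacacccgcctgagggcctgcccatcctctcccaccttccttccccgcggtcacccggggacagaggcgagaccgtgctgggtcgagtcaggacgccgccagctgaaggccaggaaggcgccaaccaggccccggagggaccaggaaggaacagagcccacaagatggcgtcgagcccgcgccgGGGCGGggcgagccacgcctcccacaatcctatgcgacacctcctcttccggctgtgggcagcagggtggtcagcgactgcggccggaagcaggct

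The Tgfa promoter is 76.7% G and C, more than 97.7% of 33469 promoters of this length, and holds 36 CG dinucleotides, against a median of 7. The Adam17 promoter is 68.7% G and C and holds 25 CG dinucleotides. Tgfa has 2 GC boxes, both on the minus strand, with leftmost bases at -154 and 22 counted from the start, and Adam17 has 1 on the plus strand at -46. A GC box occurs in 33.1% of all promoters. The search on both strands for TATAAA (14.2% of all promoters), the AP-1 motif TGANTCA (7.33%), the CRE TGACGTCA (1.83%), the EGR1 motif GCGGGGGCG (2.73%) and CCAAT (37.5%) found no match in either window. A match describes the letters only, and no expression value was tested against these motifs.

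Egf, the gene of epidermal growth factor, was higher in OA at 8 weeks in these arrays but was not called in the fit without pairing. It read 11.26, 10.76 and 10.46 in OA at 8 weeks, against 10.35, 9.75 and 9.97 in sham at 8 weeks. At 2 weeks it read 10.22, 10.13 and 10.40 in OA, against 10.13, 10.15 and 10.41 in sham. The groups did not overlap at 8 weeks and nearly coincided at 2 weeks. Its differences were 0.81 ± 0.21 at 8 weeks (95% confidence interval 0.34 to 1.27, adjusted p = 0.0669) and 0.02 ± 0.21 at 2 weeks (adjusted p = 1), and the difference between them was 0.78 ± 0.30 (adjusted p = 0.395). Without OA 8 weeks replicate 1, which had the highest value, the 8-week difference of Egf was 0.59 (adjusted p = 0.139), and without sham 8 weeks replicate 1 it was 0.97 and was called (adjusted p = 0.035). With the replicate number as a block within each time, the 8-week difference of Egf was called (adjusted p = 0.0226).

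Skeletal muscle markers moved with Egf at 8 weeks and did not at 2 weeks. The mean level of the 16 muscle markers that passed the filter (of 22 listed) was 14.63, 11.66 and 10.28 in OA at 8 weeks. In sham at 8 weeks it was 10.94, 6.14 and 8.13. The level was 5.45 to 8.36 in OA at 2 weeks, against 6.01 to 7.12 in sham at 2 weeks. Of the markers left out, Myh7 and Tnnt1 stayed under log2 4 throughout. Actn2, Myh2 and Des also failed the filter, though their highest values were 10.17, 14.36 and 8.76. At 8 weeks 15 of the 16 markers that passed were higher in OA and 0 were called, against 1.03% of all 9247 genes called higher. The array with the highest Egf value at 8 weeks also had the highest muscle level, and the array with the lowest Egf value had the lowest. At 2 weeks the OA array with the highest muscle level, 8.36, had an Egf value of 10.22, and the one with the lowest, 5.45, had 10.40. With the muscle level as a covariate, the 8-week difference of Egf was 0.37 (adjusted p = 0.541). The part of muscle RNA in the Egf values was not tested. For Tgfa (1381449_s_at), the 3 sham arrays at 8 weeks read 9.43 to 9.47, with muscle levels of 6.14 to 10.94. The 3 OA arrays at 8 weeks read 12.21 to 12.75, with muscle levels of 10.28 to 14.63. The 8-week difference of Tgfa with the covariate was 3.30 (adjusted p = 8.4e-05 by limma). The muscle level itself differed between OA and sham at 8 weeks, and the part of muscle RNA in the Tgfa values was not tested.

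**Figure D2:**
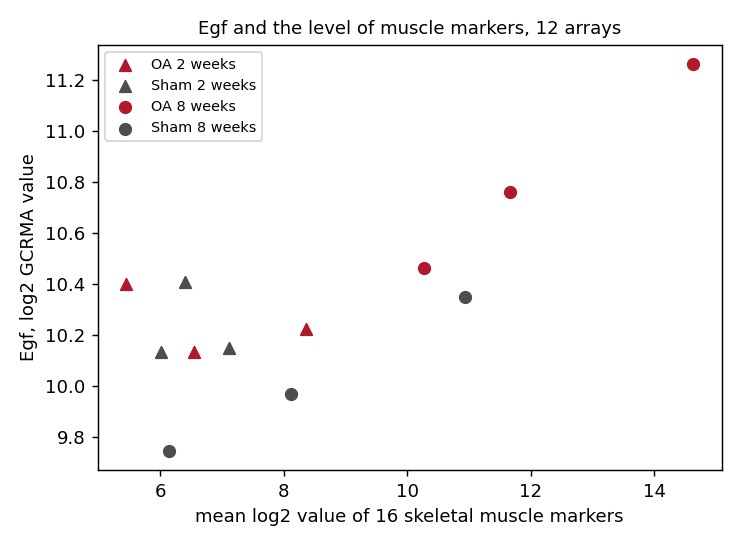
Log2 level of Egf (vertical axis) against the mean log2 level of 16 skeletal muscle markers (horizontal axis), 1 point per array, with OA and sham at 2 and 8 weeks marked apart. OA 8 weeks replicate 1 has the highest value on both axes, at 11.26 for Egf and 14.63 for the muscle markers.

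Hbegf, the gene of heparin-binding EGF-like growth factor, read lower in OA at 8 weeks and was not called in the fit without pairing. It read 5.97, 7.20 and 6.57 in OA at 8 weeks, against 7.37, 7.84 and 7.65 in sham at 8 weeks. Its 2-week values were 7.61, 7.19 and 8.06 in OA, against 8.32, 7.82 and 8.02 in sham. The highest OA array lay just below the lowest sham array at 8 weeks, and OA and sham overlapped at 2 weeks. The OA minus sham differences of Hbegf were -1.04 ± 0.31 at 8 weeks (95% confidence interval -1.73 to -0.35, adjusted p = 0.0978) and -0.44 ± 0.31 at 2 weeks (adjusted p = 1). With the replicate number as a block within each time, the 8-week difference of Hbegf was called (adjusted p = 0.0396).

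Between 8 and 2 weeks in OA, Hbegf fell by 1.04 ± 0.31 (adjusted p = 0.026), although the groups overlapped. That call ended without OA 8 weeks replicate 1 (-0.73, adjusted p = 0.0836), and also without OA 2 weeks replicate 1 (adjusted p = 0.0605), OA 2 weeks replicate 3 (0.0902) or OA 8 weeks replicate 3 (0.0612). The Hbegf call also ended with the muscle covariate (adjusted p = 0.0646), with only the 6 arrays compared (0.0854) and without both number 1 arrays at 8 weeks (0.0862). Without OA 8 weeks replicate 1 the 8-week OA minus sham difference of Hbegf was -0.74 (adjusted p = 0.211), and without sham 8 weeks replicate 1 it was -1.17 (adjusted p = 0.0844).

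Markers of macrophages, osteoclasts and osteoblasts were also low in OA at 8 weeks, and macrophages are a known source of heparin-binding EGF. The mean of 16 macrophage markers (of 20 listed) was 6.23 to 6.50 in OA at 8 weeks, against 7.46 to 10.07 in sham. All 16 were lower and 5 were called, against 2.45% of all 9247 genes called lower at 8 weeks. Their median was -2.59, against -0.03 over all genes, and Cx3cr1 stayed under log2 4 throughout. The mean of 5 osteoclast markers was 9.48 to 10.82 in OA at 8 weeks, against 12.53 to 12.87 in sham, with 5 of 5 called lower. For 9 osteoblast and osteocyte markers it was 10.79 to 11.56 in OA, against 12.10 to 12.44 in sham, with 3 called lower. All 6 measured endothelial markers (of 11) were lower with 0 called, at means of 4.72 to 5.51 in OA at 8 weeks, against 5.60 to 7.09 in sham. Of 7 measured synovial fibroblast and tendon markers 1 was called, lower. Of 3 epithelial markers that passed the filter (of 6 listed) 0 were called, with 2 higher, and Krt5, Krt14 and Cdh1 stayed under log2 4 throughout. The part of these cells in the values of Hbegf, Tgfa and Adam17 was not tested.

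Areg and Ereg, the ligand genes of amphiregulin and epiregulin, did not pass the filter. Areg read 2.38 to 2.50 and Ereg 1.67 to 1.75 over the 12 arrays. Values in this range lie at the floor of the method, where differences between arrays are compressed, so they bound the signal and carry no direction.

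Egfr, the receptor for all 5 ligands, did not separate OA from sham at either time. Its brightest probe set, 1381145_at, read 10.62, 11.29 and 11.02 in OA at 8 weeks, against 10.44, 11.69 and 11.42 in sham at 8 weeks. At 2 weeks it read 11.85, 10.88 and 10.45 in OA, against 11.76, 11.56 and 10.48 in sham. The groups overlapped throughout, and the differences were -0.20 ± 0.46 at 8 weeks (95% confidence interval -1.23 to 0.82, adjusted p = 0.854) and -0.21 ± 0.46 at 2 weeks. The interval at 2 weeks was -1.23 to 0.815. For this probe set both intervals allow a fall of over 1 log2 unit in OA, but not a rise of that size. Changes within these intervals were not resolved with 3 arrays per group.

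A further Egfr probe set, 1370830_at, read 7.69, 7.80 and 7.38 in OA at 8 weeks, against 7.26, 8.28 and 7.75 in sham at 8 weeks. Its 2-week values were 8.35, 6.36 and 5.30 in OA, against 7.35, 6.40 and 6.09 in sham. The 3 OA arrays at 2 weeks were the most widely spread, with an SD of 1.55. In each of the 4 groups the same array was highest in both Egfr probe sets. The OA minus sham differences were -0.14 ± 0.65 at 8 weeks and 0.06 ± 0.65 at 2 weeks. The third Egfr probe set, 1385413_at, read 2.56 to 2.85 and did not pass the filter.

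The other receptors of the family also stayed at the floor. Erbb2, the preferred partner of the other receptors, which binds no ligand itself, read 2.06 to 2.28 over the 12 arrays. Erbb3, a neuregulin receptor with little kinase activity, read 2.31 to 2.41. Over the 5 probe sets that did not pass, values ran from 1.67 to 2.85. A wider list of 7 EGF family genes behaved alike, with 5 on the array with a symbol of their own. Their 14 probe sets all failed the filter, with the highest value, 3.31, in the neuregulin gene Nrg1. The betacellulin gene Btc read 2.43 to 2.96 and the receptor gene Erbb4 2.22 to 2.32.

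Errfi1, the feedback inhibitor, was bright in all arrays. It read 14.27, 14.49 and 14.37 in OA at 8 weeks, against 14.18, 14.24 and 14.02 in sham at 8 weeks. The 2-week values were 14.06, 13.69 and 13.73 in OA, against 14.32, 13.89 and 13.71 in sham. The 8-week groups did not overlap, by a margin smaller than their SDs of 0.11 each. The difference was 0.23 ± 0.16 at 8 weeks (95% confidence interval -0.13 to 0.59, adjusted p = 0.444) and -0.15 ± 0.16 at 2 weeks.

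With time in OA, Errfi1 rose by 0.55 ± 0.16 (adjusted p = 0.0227), and all 3 arrays at 8 weeks lay above all 3 at 2 weeks. The same held for Tgfa (1381449_s_at) and Egf, and groups without overlap made up 46.6% of all probe sets in this comparison. Without OA 8 weeks replicate 1 the difference of Errfi1 was 0.61 (adjusted p = 0.0342). That call ended with array medians made equal (0.37, adjusted p = 0.124), and without OA 2 weeks replicate 2 (0.0770), OA 2 weeks replicate 3 (0.0694), OA 8 weeks replicate 2 (0.0722) or OA 8 weeks replicate 3 (0.0525). In sham the difference of Errfi1 over time was 0.18.

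**Figure D3:**
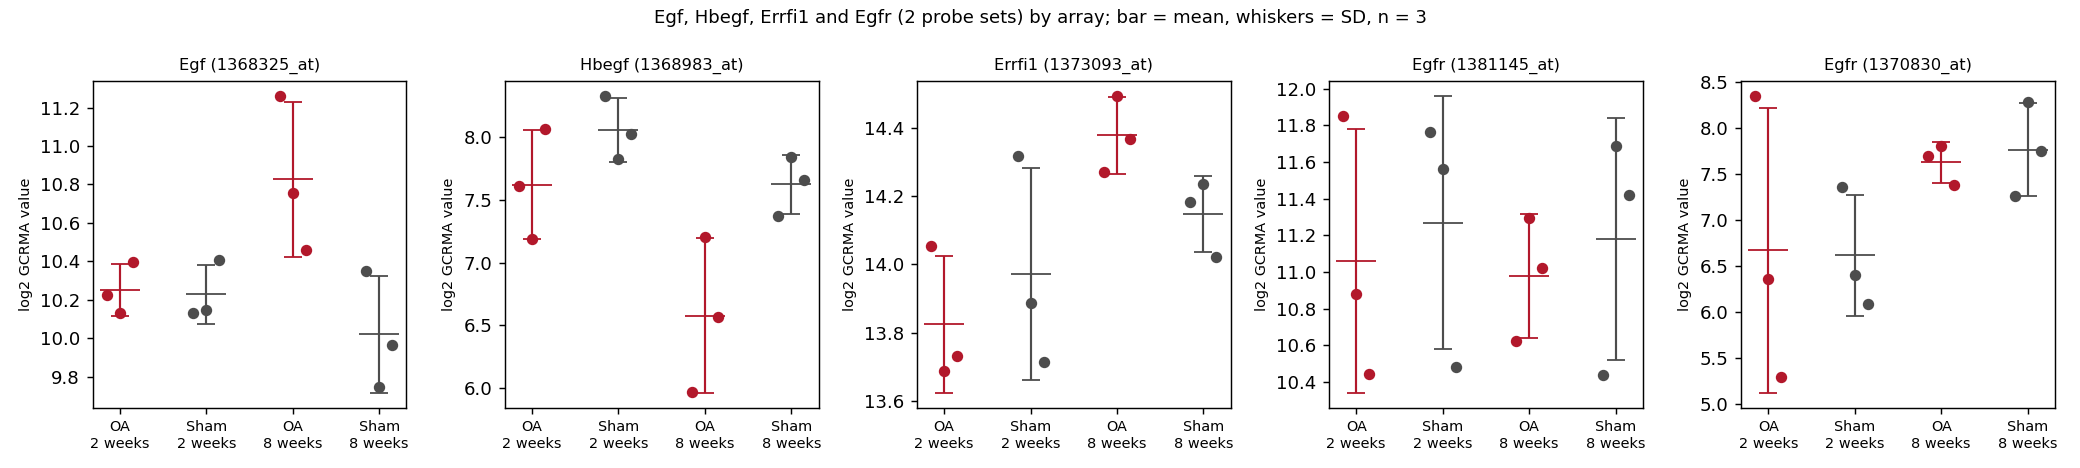
Deposited log2 levels (vertical axis) of Egf, Hbegf, Errfi1 and both Egfr probe sets that passed the filter, in each array by group, with OA left of sham at 2 and at 8 weeks, horizontal bars for the mean and whiskers for the SD. At 8 weeks OA and sham do not overlap for Egf, Hbegf and Errfi1, and they overlap for Egfr at both times.

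At 8 weeks OA and sham did not overlap in 5 of the 8 family probe sets, 4 with OA above (Tgfa, Egf, Adam17 and Errfi1) and 1 with OA below (Hbegf). Of all probe sets, 25.1% did not overlap at 8 weeks, 12.3% with OA above. At 2 weeks 0 of the 8 did so, against 5.38% of all probe sets.

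**Figure D4:**
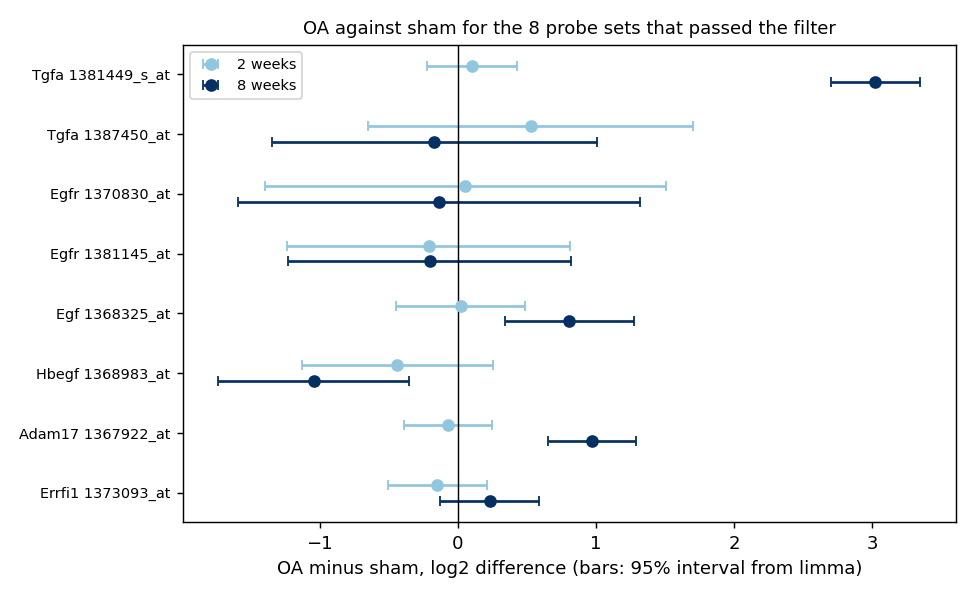
OA minus sham log2 difference of the 8 family probe sets (horizontal axis) with 95% confidence intervals, at 2 and at 8 weeks. At 8 weeks the intervals of Tgfa (1381449_s_at), Adam17 and Egf lie above 0 and that of Hbegf below 0, and those of Tgfa and Adam17 belong to called differences.

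Over time, 3 of the 8 probe sets were called in OA, with Tgfa and Errfi1 higher and Hbegf lower at 8 than at 2 weeks. The same comparison called 34.1% of all probe sets, 21.7% as higher, so a count of this size is near the background. In sham 2 of the 8 were called, Tgfa and Adam17, both lower at 8 weeks, against 18.7% of all probe sets, of which 6.24% were lower. The dim Tgfa probe set differed by 1.44 ± 0.53 in sham, opposite in sign to the brighter one, and was not called (adjusted p = 0.0954). All 3 of its sham values at 8 weeks lay above all 3 at 2 weeks. Egf differed by 0.58 ± 0.21 in OA over time (adjusted p = 0.0583).

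Further genes of the pathway were read from lists, with the brightest kept probe set for each gene. At 8 weeks 3.48% of 9247 genes were called in OA minus sham, 1.03% higher and 2.45% lower, with a median of -0.03. Of 11 other sheddases, helpers and inhibitors, 5 were measured and 0 were called (median -0.02). Rhbdf1, which helps ADAM17 mature, differed by -0.50 ± 0.27 (adjusted p = 0.317). Timp3, the inhibitor of ADAM17, differed by 0.30 ± 0.20 (adjusted p = 0.425).

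Of 36 adaptors, kinases and regulators between the receptor and its targets, 24 were measured and 0 were called (median -0.04), with 5 of 24 at an unadjusted p under 0.05, against 22% of all 9247 genes, so near the background. The exchange factor gene Sos2, which activates RAS, differed by 0.47 ± 0.12 (adjusted p = 0.0644), and the kinase gene Akt1 by -0.52 ± 0.13 (adjusted p = 0.0655). Socs5, a suppressor of EGF receptor signalling, differed by 0.41 ± 0.11 (adjusted p = 0.0737), and the RAF kinase gene Araf by 0.41 ± 0.12 (adjusted p = 0.0848). With the replicate number as a block within each time, Sos2 (adjusted p = 0.0307) and Akt1 (0.0478) were called.

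Of 20 ERK targets and feedback genes, 12 were measured. At 8 weeks 1 rose and 0 fell (median 0.12, against -0.03 over all genes), with 9 differences above 0 and 3 below. At 2 weeks the median was -0.29, against -0.01 over all genes, with 2 differences above 0 and 10 below. Of these 2-week differences 0 were called and 1 had an unadjusted p under 0.05. The change of the OA effect between the times was called for 0 of the 12, so a reversal was not established. The gene that rose at 8 weeks was Spry2, a feedback inhibitor of receptor tyrosine kinases. Spry2 read 8.95, 9.47 and 9.18 in OA at 8 weeks, against 7.78, 8.55 and 8.21 in sham at 8 weeks, without overlap. Its difference was 1.02 ± 0.23 (adjusted p = 0.0451), close to the threshold, and the call ended under 16 of 24 alternatives (adjusted p from 0.03 to 0.144 over all 24). Dusp1, a phosphatase gene induced by ERK and by stress, read 14.51, 14.48 and 14.48 in OA at 8 weeks, against 13.86, 12.80 and 12.90 in sham, and was not called (1.30 ± 0.35, adjusted p = 0.0734). It was called under 5 of 24 alternatives, among them the replicate block within each time (adjusted p = 0.0368) and without sham 8 weeks replicate 1 (1.64, adjusted p = 0.0247). The ERK phosphatase genes Dusp5 and Dusp6 differed by 0.17 ± 0.09 (adjusted p = 0.315) and -0.58 ± 0.44 (adjusted p = 0.496). With single arrays left out, Dusp6 ran from -1.05 to -0.20.

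Of 6 genes known to respond to TGF-alpha in chondrocytes, 5 were measured. At 8 weeks 1 was called, the collagenase gene Mmp13, which was lower in OA, against 2.45% of all 9247 genes called lower. At an unadjusted p under 0.05 there were 4 of the 5, against 22% of all genes. Of the 5 differences 2 were above 0 and 3 below. The list holds no direction of response. Neither a response to TGF-alpha nor the part of the marked cell types in these values was tested. Mmp13 read 10.66, 12.56 and 12.58 in OA at 8 weeks, against 13.92, 14.80 and 14.59 in sham at 8 weeks. Its difference of -2.51 ± 0.46 (adjusted p = 0.0219) was not called with the muscle covariate (0.257), with only the 6 arrays compared (0.146), or without sham 8 weeks replicate 2 (0.0834) or 3 (0.0889). With single arrays left out, the 8-week difference of Mmp13 ran from -2.83 to -1.87. The chemokine gene Ccl2 read 11.98, 12.46 and 11.99 in OA at 8 weeks, against 4.18, 8.61 and 10.51 in sham. Its difference of 4.38 ± 1.31 was not called (adjusted p = 0.0994 by limma), and ran from 2.58 to 5.75 with single arrays left out. Ctsc, a lysosomal protease gene, differed by -2.55 ± 0.91 (adjusted p = 0.15), and was called without sham 8 weeks replicate 1 (-3.69, adjusted p = 0.0171). Acan, the aggrecan gene, differed by 0.22 ± 0.11 (adjusted p = 0.271), and Col2a1, of type II collagen, by -0.20 ± 0.08 (adjusted p = 0.196). At 2 weeks 0 genes of any of these lists were called.

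The genes whose pattern over the 12 arrays came closest to that of Tgfa were found by the root mean square difference of centred log2 values among 11680 probe sets. Tgfa itself varied by 1.08 on that measure. The nearest were the exchange factor gene Arhgef5 (0.603), a probe set annotated to Mir29c (0.618), the ion transport regulator gene Fxyd3 (0.623), the laminin gene Lamb3 (0.628) and the stromelysin gene Mmp3 (0.647). Each of these values is over 0.6, set against the 1.08 of Tgfa, so the likeness is loose.

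These genes were chosen for likeness to Tgfa over the same arrays, so a higher 8-week mean in OA follows from the choice, and their values are a description. Lamb3 averaged 7.68 in OA at 8 weeks, against 5.39 in sham at 8 weeks, and 5.87 in OA at 2 weeks, against 5.45 in sham at 2 weeks. The Mir29c probe set averaged 10.14 in OA at 8 weeks, against 8.10 in sham. Mmp3 averaged 14.93 in OA at 8 weeks, against 13.36 in sham, and 14.91 in OA at 2 weeks, against 14.73 in sham at 2 weeks, so that only its 8-week sham level stood apart. Arhgef5 lay near the filter level in sham at 8 weeks, at a mean of 3.56, against 5.14 in OA.

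**Figure D5:**
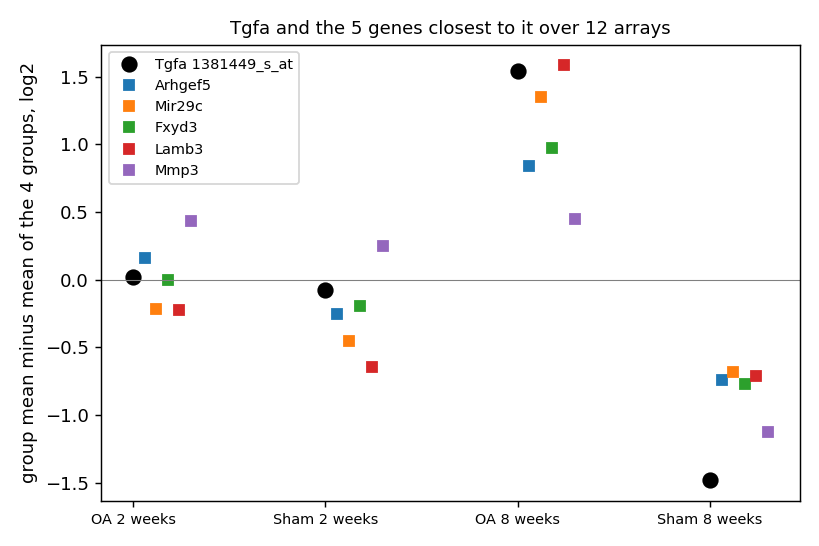
Group means of log2 levels, centred on the mean of the 4 groups (vertical axis), for Tgfa (circles) and the 5 genes nearest to it (squares), with OA left of sham at 2 and at 8 weeks. Each symbol is 1 probe set in 1 group, and the 5 genes were chosen for their likeness to Tgfa over these arrays.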

How the data were processed

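The deposited values are log2 levels, which the authors obtained with GCRMA per the submitters' processing notes (version not given in the sources used here), and they were used without further normalization. GCRMA corrects background by probe sequence and compresses values near its floor. Gene names came from the array annotation: 20832 of 31099 probe sets carried 1 symbol, 436 several and 9831 none, and an update to the current rat gene table changed 0 symbols. The 57 control probe sets were left out, and others were kept if log2 exceeded 4 in at least 3 of 12 arrays.

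One mean per group was fitted with limma 3.58.1 in R 4.3.3 (8 residual and 1.94 prior degrees of freedom), adjusted by Benjamini-Hochberg. Tables used pandas 2.3.3 and numpy 2.4.6 under Python 3.11.15, and plots matplotlib 3.10.9. Tests were checked on simulated data. Named genes were all members, the 2 to 4 pathway genes of smallest p per list at 8 weeks, every called one among those lists, and the 5 nearest to Tgfa and Adam17 in pattern. Nrg1, Btc, Erbb4 and Acan were named outside this rule, after their values were seen. So were the markers Myh7, Tnnt1, Actn2, Myh2, Des, Cx3cr1, Krt5, Krt14 and Cdh1. The members and lists were chosen with earlier results of these data known. Replicate numbers may pair OA and sham arrays within each time, judged only from these data. Deviations from the group means correlated at 0.119 to 0.527 in 6 of 6 same-number pairs, and over 0.1 in 1 of 12 different-number pairs. Sham 2 weeks replicate 3 and sham 8 weeks replicate 1, of different number and time, correlated at 0.64. Such correlations therefore do not establish pairing. The labels do not say what a number marks. Values with this block are given where they change a call. The alternatives were other filters, normalizations, variance models and covariates, and each array left out.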

Additional observations from a re-analysis of the deposited data

Results flagged for a closer look

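The OA effect on Tgfa (1381449_s_at) differed between the times by 2.92 ± 0.21 on the log2 scale (8 weeks minus 2 weeks, adjusted p = 0.00102 by limma). The 3 OA arrays were above all 3 sham arrays at 8 weeks (mean levels 12.47 and 9.45) and overlapped with them at 2 weeks (mean levels 10.95 and 10.85). The dimmer Tgfa probe set gave -0.70 ± 0.75 for the same contrast (adjusted p = 0.758).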

How the results depend on the processing

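Of the 11 called differences of single genes, 0 changed sign under any alternative, and 6 kept their call under all of them, the 5 of Tgfa (1381449_s_at) and the fall of Adam17 with time in sham. For Tgfa the 8-week difference ran from 2.88 to 3.30 (largest adjusted p = 0.0247) and the difference of its effects from 2.78 to 3.17 (largest adjusted p = 0.0129).

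The count of EGF family probe sets called at 8 weeks, 2 of 8, became 4 with array weights, 1 with the muscle covariate, 1 with the 6 compared arrays alone, and 2 to 3 with single arrays left out. The EGF family count became 2 with array weights both for the average of the times and for the difference of the effects, where it was 1, and the difference of effects ran from 1 to 2 with single arrays left out. For 8 minus 2 weeks in OA the EGF family count of 3 ran from 1 (without OA 2 weeks replicate 3) to 4. Egf was called at 8 weeks with added quantile normalization (adjusted p = 0.0436), array weights (0.0295), without both number 1 arrays (0.0417), OA 8 weeks replicate 3 (0.0386) or sham 8 weeks replicate 1 (0.0350). Hbegf was called at 8 weeks with array weights (0.0368). Single 8-week differences were also called under some alternatives for Dusp1 (5 of 24), Sos2 (5), Akt1 (4), Socs5 (3) and Ctsc (3).

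Of all probe sets, 552 were called at 8 weeks, against 362 with no filter, 826 with quantile normalization, 284 with array medians made equal, 1567 with array weights, 37 with the muscle covariate, 27 with the 6 compared arrays alone and 110 to 979 with single arrays left out.

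With the replicate number as a block within each time, where the numbers may pair arrays, the EGF family count at 8 weeks was 4. This block called 1037 of all probe sets at 8 weeks. This block added the 8-week calls of Egf, Hbegf, Sos2, Akt1 and Dusp1 and the call of Egf over time in OA (adjusted p = 0.0111), and ended no call of the named genes. With it 110 probe sets were called for the average and 67 for the difference of effects. Across times, 3 of 12 same-number pairs correlated over 0.1 (range -0.497 to 0.241). With 1 block over both times the EGF family count at 8 weeks was 2, with 653 of all probe sets called.

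Sign changes occurred only in differences that were not called, and their cause was not tested. At 8 weeks the dim Tgfa probe set gave 0.28 with array weights, 0.20 with the muscle covariate and 0.055 without both number 1 arrays. With the muscle covariate Egfr (1381145_at) gave 0.10, Rhbdf1 0.011 and Dusp6 0.25 at 8 weeks, and Egf -0.009 at 2 weeks. At 2 weeks array weights gave -0.059 for Egfr (1370830_at) and 0.013 for Adam17. The difference of effects of Egfr (1381145_at) was -0.038 with quantile normalization, -0.002 with equal medians and -0.19 without both number 1 arrays. Over time in OA, Egfr (1381145_at) gave 0.059 with the muscle covariate and 0.10 without both number 1 arrays, and Adam17 -0.082 with equal medians. Over time in sham, Egfr (1381145_at) gave 0.29 without both number 1 arrays.

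With single arrays left out, the 8-week differences ran from -0.69 to 0.31 for the dim Tgfa probe set, -0.39 to 0.12 and -0.58 to 0.051 for Egfr (1370830_at and 1381145_at), -0.29 to 0.12 for Adam15 and -0.071 to 0.045 for Adam19. The 2-week differences ran from -0.019 to 0.21 for Tgfa, -0.79 to 0.74 and -0.61 to 0.10 for Egfr, -0.051 to 0.11 for Egf, -0.15 to 0.016 for Adam17 and -0.28 to 0.025 for Errfi1. The differences of effects ran from -0.88 to 0.65 and -0.37 to 0.40 for the Egfr probe sets. Over time in OA the ranges were -0.39 to 0.32 for Egfr (1381145_at) and -0.01 to 0.22 for Adam17, and in sham -0.48 to 0.29 for Egfr (1381145_at). Without a change of sign, the 2-week differences ran from 0.073 to 0.81 for the dim Tgfa probe set and -0.66 to -0.22 for Hbegf, the 8-week difference of Timp3 from 0.19 to 0.43, and Egf over time in OA from 0.36 to 0.76. The arrays are few and values under log2 4 lie near the floor, which limits what differences of the dim members can show.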

Other observations

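The genes closest to Adam17 in pattern over the 12 arrays were the histone methyltransferase gene Nsd3 (root mean square difference of centred log2 levels 0.188, where Adam17 itself varied by 0.429), the potassium channel gene Kcnk5 (0.209), Map6 (0.262), Capzb (0.268) and Synj1 (0.268). Nsd3 averaged 9.45 in OA at 8 weeks, against 8.76 in sham at 8 weeks, and 9.30 in OA at 2 weeks, against 9.37 in sham at 2 weeks. Kcnk5 averaged 5.32 in OA at 8 weeks, against 4.64 in sham at 8 weeks. These genes were chosen for likeness to Adam17 over the same arrays. A low mean in sham at 8 weeks therefore follows from the choice, and their values are a description.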
